A study of Mus musculus with 12 samples.

Results

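The integrated stress response regulators examined here are 10 named mouse genes: Atf4, Trib3, Ppp1r15a, Nupr1, Sesn2, Ddit4, Eif4ebp1, Chac1, Fgf21 and Vldlr. They were chosen by name as the regulators and output genes of this pathway. The choice was made with earlier results of these data known, so counts of these genes are descriptive. All 10 were found, each with exactly 1 probe set that names a single gene, and all 10 were among the 17052 genes tested. The arrays carried 18820 genes with such a probe set.

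The study measured liver RNA from mice given an overdose of acetaminophen (APAP), in animals lacking the Pml gene (KO) and in Pml wt animals. All mice were female BALB/cByJ, aged 2.5 months. The KO groups were livers from untreated Pml KO mice and from Pml KO mice given 300 mg/kg APAP in warmed PBS intraperitoneally and killed 2 h or 6 h later. The wt groups were the same 3 conditions in Pml wt mice. Each of the 6 groups had 2 arrays, 12 in all. The sources used here give neither the part of Pml missing in the KO nor whether untreated mice received PBS. The labels do not state that the arrays of a group came from separate animals, so p-values measure only the spread between these samples, which may be technical.

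The integrated stress response is the shared answer of mammalian cells to amino acid shortage, unfolded protein in the endoplasmic reticulum, viral RNA and heme deficiency. Kinases that sense these states phosphorylate the translation factor eIF2, which lowers general protein synthesis but favours translation of the mRNA of the transcription factor ATF4. ATF4 then induces genes that feed amino acid supply, feedback on eIF2, control of the growth kinase complex mTORC1 and, in liver, the hormone FGF21. In hepatocytes APAP is converted to a reactive product that consumes glutathione. Arrays measure RNA, so the translational step of this pathway is not read here.

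Values are the authors' normalized intensities on a log2 scale, on which a difference of 1 is a doubling. Levels are compared between groups for 1 gene at a time, never between genes. Differences are given with their standard error (SE) from a limma model of the 6 group means, and a gene was called when its p adjusted over all 17052 tested genes (Benjamini-Hochberg) was under 0.05. Array medians were 79.9 to 90.1 on the linear intensity scale, and the 2 arrays of a group correlated at 0.985 to 0.993 across genes. Pml itself was lower in KO than in wt arrays in each condition, with log2 intensities of 7.09 to 7.97 over the 6 KO arrays and 7.82 to 8.46 over the 6 wt arrays, and the difference was not called in any condition. The 6 hepatocyte markers had linear intensities of 1179 or more on all arrays, above the array medians. In bulk liver, fewer cells of a type and less RNA per cell cannot be told apart.

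The KO arrays at 6 h stood apart from each other for these genes. Of the 2 KO arrays at 6 h, replicate 2 was lower than replicate 1 for 9 of the 10 genes, with a median gap of -0.71. Over all tested genes the median gap was 0.04. Regardless of sign, the median gap was 0.71 for the 10 genes and 0.15 for all tested genes. The gap was -2.62 for Chac1, -1.77 for Ppp1r15a, -1.72 for Fgf21, -1.35 for Sesn2 and -0.97 for Trib3. Only Nupr1 was higher in replicate 2, by 0.36. A lower replicate 2 was also found for 8 of the 10 genes in wt untreated and in wt at 6 h. Regardless of sign, the median gaps of the 10 genes were 0.35 in KO untreated and 0.17 in KO at 2 h. In wt they were 0.21 untreated, 0.20 at 2 h and 0.10 at 6 h. Those of all tested genes were 0.12 to 0.16 in these other groups. Values without 1 of the KO 6 h arrays are given below for the calls that turned on it. The SE of such a fit does not reflect the gap between these 2 arrays. Whenever an array is left out, the array left in its group is assumed to vary like the arrays of the other groups.

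**Figure D1:**
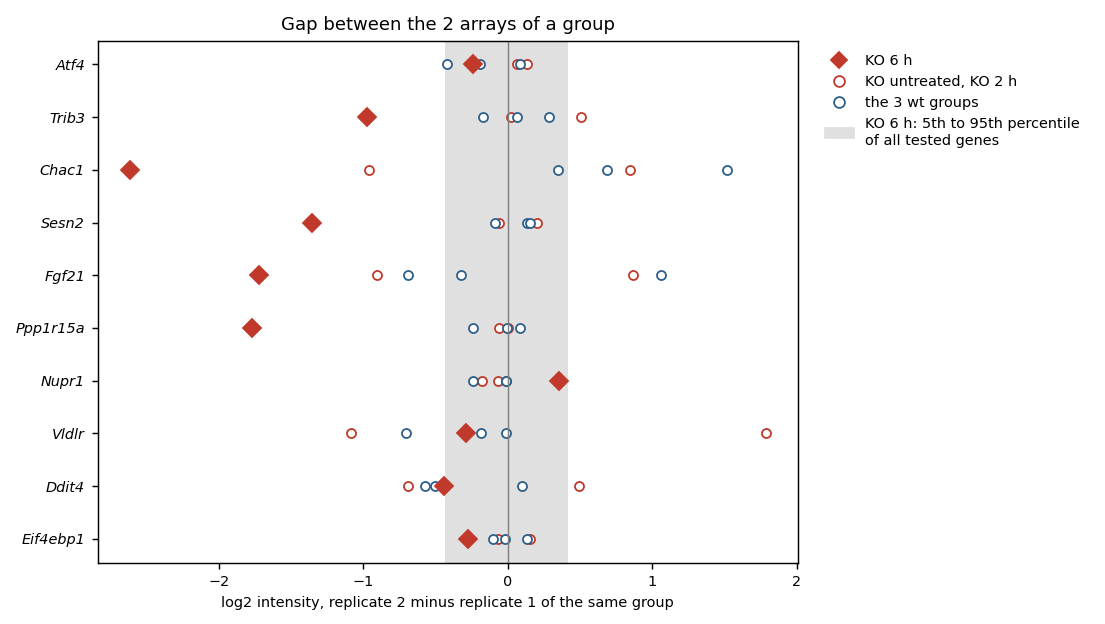
Difference in log2 intensity between replicate 2 and replicate 1 of each group (x axis) for the 10 genes (rows). Filled diamonds are KO at 6 h, open red circles the other KO groups, open blue circles the wt groups, and the grey band spans the 5th to the 95th percentile of all tested genes in KO at 6 h, -0.44 to 0.41. Chac1, Ppp1r15a, Fgf21, Sesn2, Trib3 and Ddit4 had KO 6 h diamonds below the band, 6 genes in all.

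Many genes of this response carry a composite DNA element that ATF4 and a C/EBP family partner bind together, so the promoters were searched for its letters, TGATGNAA, on both strands (TTNCATCA on the other strand). Promoter sequence, from 250 bases before to 50 bases after a start site, came from RefSeq (GRCm38.p6). It was matched for 9 of the 10 genes, in 10 promoters because Vldlr has 2. Eif4ebp1 was not matched. The element was present for 5 of these 9 genes, and 3.97% of all 32851 promoters held it. The following 30-base windows show each match, with the element in capitals and the sequence written on the gene's strand. The Chac1 window is chr2:119351038-119351067 (+), the Trib3 window chr2:152344028-152344057 (−), the Fgf21 window chr7:45615611-45615640 (−), the Nupr1 window chr7:126625562-126625591 (−) and the Vldlr window chr19:27216809-27216838 (+).
Chac1: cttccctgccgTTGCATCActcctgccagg
Trib3: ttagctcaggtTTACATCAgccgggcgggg
Fgf21: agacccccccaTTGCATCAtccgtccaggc
Nupr1: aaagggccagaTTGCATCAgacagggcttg
Vldlr: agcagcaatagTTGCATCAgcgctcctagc

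In 4 of the 5 windows the element had the same spelling, TTGCATCA, which overlaps the first search by construction and occurred in 0.895% of all promoters. Trib3 had another spelling, and its match lay 14 bases after the start site, whereas the others lay 110 to 200 bases before it. The palindrome TGACGTCA, the full cAMP response element, was searched as well. It was found in Ppp1r15a only among the 9 genes and in 1.79% of all promoters. That window is chr7:45526262-45526291 (−), with the element in capitals 12 bases before the start site.
Ppp1r15a: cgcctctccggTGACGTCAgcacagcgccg

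The whole promoters of Fgf21 and Chac1, which had the highest fold changes from untreated livers among the 10 genes, are printed for context with the composite element in capitals. They lie at chr7:45615441-45615740 (−) for Fgf21 and chr2:119350992-119351291 (+) for Chac1.
Fgf21: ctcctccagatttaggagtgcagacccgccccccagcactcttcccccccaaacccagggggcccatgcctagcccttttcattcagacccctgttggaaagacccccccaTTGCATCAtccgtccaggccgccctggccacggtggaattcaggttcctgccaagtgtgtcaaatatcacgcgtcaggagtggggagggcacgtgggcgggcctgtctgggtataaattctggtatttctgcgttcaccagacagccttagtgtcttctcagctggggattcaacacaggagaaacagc
Chac1: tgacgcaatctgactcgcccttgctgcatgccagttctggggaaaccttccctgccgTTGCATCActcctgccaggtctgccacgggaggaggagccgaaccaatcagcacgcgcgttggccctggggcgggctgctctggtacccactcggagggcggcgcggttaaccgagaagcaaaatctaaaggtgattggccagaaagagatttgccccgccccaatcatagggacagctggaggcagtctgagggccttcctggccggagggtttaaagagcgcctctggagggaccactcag

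A match is a description of the letters in these windows and not evidence of binding. Of the 5 genes with the composite element, 4 were called higher in wt livers at 6 h, and of the 4 genes without it in the searched window, 4 were also called higher, where 16.5% of all tested genes were called higher.

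Atf4 encodes the bZIP transcription factor at the centre of the pathway. In KO livers its log2 intensity was 9.0 and 9.14 without APAP, 10.51 and 10.57 after 2 h and 9.98 and 9.74 after 6 h. The wt livers had 9.47 and 9.05 without APAP, 10.06 and 10.14 after 2 h and 10.33 and 10.14 after 6 h. All 8 treated arrays lay above all 4 untreated arrays, and the highest values were those of KO livers at 2 h. Against untreated livers Atf4 rose 2.76-fold in KO at 2 h (log2 difference 1.47 ± 0.15 SE, limma adjusted p = 0.000226) and 1.79-fold in wt at 2 h (0.84 ± 0.15, adjusted p = 0.00511). At 6 h it was 1.72-fold higher in KO (0.79 ± 0.15, adjusted p = 0.00249) and 1.97-fold higher in wt (0.98 ± 0.15, adjusted p = 0.000592). Within KO it fell by 0.68 ± 0.15 at 6 h relative to 2 h (adjusted p = 0.00637). The same step in wt was 0.13 ± 0.15 and was not called (adjusted p = 0.535). The KO and wt steps were not tested against each other. These Atf4 calls held when any 1 array was left out.

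Nupr1 encodes a small stress-induced nuclear protein that acts with transcription factors and is a target of ATF4. In KO livers it measured 5.71 and 5.64 without APAP, 5.21 and 5.03 after 2 h and 6.01 and 6.36 after 6 h. The wt livers had 5.45 and 5.44 without APAP, 5.76 and 5.52 after 2 h and 5.94 and 5.93 after 6 h. Its range over the 12 arrays was narrow, and the lowest values were those of KO at 2 h, below untreated KO. The mean was 5.67 over the 12 arrays and 5.12 in KO at 2 h, near the minimum mean of 5 used to admit a gene. Differences in Nupr1, here and below, therefore rest on a dim signal and are approximate. It fell by 0.55 ± 0.13 in KO at 2 h (adjusted p = 0.0113), a call that ended without KO untreated replicate 1 (adjusted p = 0.0626) or KO 2 h replicate 2 (adjusted p = 0.0655). At 6 h it was 1.42-fold higher in KO (0.51 ± 0.13, adjusted p = 0.0144) and 1.40-fold higher in wt (0.49 ± 0.13, adjusted p = 0.0155). The call in KO ended without KO 6 h replicate 2 (0.33 ± 0.14, adjusted p = 0.0999) or KO untreated replicate 2 (adjusted p = 0.0789), and the call in wt ended when any of its 4 arrays was left out (adjusted p between 0.0555 and 0.0742). Between 2 h and 6 h in KO, Nupr1 rose by 1.06 ± 0.13 (adjusted p = 0.000400), which held without any 1 array.

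Trib3 and Ppp1r15a encode feedback inhibitors of the pathway. TRIB3 is a pseudokinase that binds ATF4 and restrains it, and Ppp1r15a encodes GADD34, which directs protein phosphatase 1 to eIF2 and so restores translation. Trib3 measured 5.55 and 6.05 in KO without APAP, 7.24 and 7.27 in KO after 2 h and 7.99 and 7.01 in KO after 6 h. Its wt values were 5.75 and 5.58 without APAP, 6.76 and 7.04 after 2 h and 8.02 and 8.08 after 6 h. Treated and untreated arrays did not overlap in either genotype.

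Trib3 rose 2.74-fold in KO at 2 h (1.45 ± 0.27) and 2.35-fold in wt at 2 h (1.23 ± 0.27), with adjusted p of 0.00306 in KO and 0.0141 in wt. At 6 h it was 3.25-fold higher in KO (1.70 ± 0.27, adjusted p = 0.000830) and 5.20-fold higher in wt (2.38 ± 0.27, adjusted p = 0.000104). In wt the rise continued between 2 h and 6 h, by 1.15 ± 0.27 (adjusted p = 0.0106). In KO that step was 0.25 ± 0.27 and was not called (adjusted p = 0.513). The KO and wt steps were not tested against each other. Without KO 6 h replicate 2 the KO step was 0.73 ± 0.20 and was called higher (adjusted p = 0.0305), and without replicate 1 it was -0.24 ± 0.20 (adjusted p = 0.424). The wt call at 2 h ended when any of its 4 arrays was left out (adjusted p between 0.0503 and 0.0990). The wt call between 2 h and 6 h ended without wt 2 h replicate 1 (adjusted p = 0.0786) or wt 6 h replicate 2 (adjusted p = 0.0534).

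Ppp1r15a measured 6.60 and 6.54 in KO without APAP, 9.06 and 9.06 in KO after 2 h and 9.31 and 7.55 in KO after 6 h. The wt livers had 6.70 and 6.45 without APAP, 8.56 and 8.65 after 2 h and 9.96 and 9.95 after 6 h. The wt arrays formed 3 separate steps, and the KO arrays at 6 h lay on both sides of those at 2 h. Ppp1r15a rose 5.62-fold in KO at 2 h (2.49 ± 0.40, adjusted p = 0.00168) and 4.09-fold in wt at 2 h (2.03 ± 0.40, adjusted p = 0.00921). At 6 h it was 3.64-fold higher in KO (1.86 ± 0.40, adjusted p = 0.00514) and 10.4-fold higher in wt (3.38 ± 0.40, adjusted p = 0.000145). With only KO 6 h replicate 2 the difference in KO was 0.98, and with only replicate 1 it was 2.75 ± 0.13, both called. The wt step between 2 h and 6 h was 1.35 ± 0.40 (adjusted p = 0.0312) and lost its call when any of its 4 arrays was left out (adjusted p between 0.101 and 0.129). The wt call at 2 h ended without wt untreated replicate 2 (adjusted p = 0.0704), wt 2 h replicate 1 (adjusted p = 0.0580) or wt 2 h replicate 2 (adjusted p = 0.0617).

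Sesn2, Ddit4 and Eif4ebp1 act on mTORC1 or on the translation step below it. Sesn2 encodes sestrin 2, a leucine sensor that restrains mTORC1. It measured 7.03 and 7.23 in KO without APAP, 7.86 and 7.80 in KO after 2 h and 8.72 and 7.37 in KO after 6 h. Its wt values were 7.04 and 7.18 without APAP, 7.86 and 8.01 after 2 h and 8.89 and 8.80 after 6 h. All treated arrays lay above the untreated ones of their genotype, with KO 6 h replicate 2 the closest to them. At 2 h the differences of 0.70 ± 0.32 in KO (adjusted p = 0.118) and 0.82 ± 0.32 in wt (adjusted p = 0.120) were not called. At 6 h Sesn2 was 1.89-fold higher in KO (0.91 ± 0.32, adjusted p = 0.0463) and 3.33-fold higher in wt (1.74 ± 0.32, adjusted p = 0.00177). The KO call ended when any of 11 arrays was left out (adjusted p between 0.0578 and 0.252) and held without KO 6 h replicate 2 (1.59 ± 0.14, adjusted p = 8.36e-05). With only that replicate in the group the difference was 0.24 ± 0.14. The KO call also ended with no filter on dim genes (adjusted p = 0.0519) and in a fit of only the compared groups (adjusted p = 0.150). The wt call at 6 h held without any 1 array.

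Ddit4 encodes REDD1, which restrains mTORC1 through the TSC complex. It measured 6.29 and 6.78 in KO without APAP, 7.62 and 6.93 in KO after 2 h and 6.24 and 5.80 in KO after 6 h. The wt livers had 6.36 and 5.79 without APAP, 7.27 and 7.36 after 2 h and 7.70 and 7.19 after 6 h. The KO arrays at 6 h lay below the untreated KO arrays, whereas the wt arrays at 6 h lay above the untreated wt arrays. Ddit4 rose 2.36-fold in wt at 2 h (1.24 ± 0.28, adjusted p = 0.0178) and 2.58-fold in wt at 6 h (1.37 ± 0.28, adjusted p = 0.00357). In KO neither the 2 h difference of 0.74 ± 0.28 (adjusted p = 0.0727) nor the 6 h difference of -0.52 ± 0.28 (adjusted p = 0.187) was called. Between 2 h and 6 h in KO it fell by 1.25 ± 0.28 (adjusted p = 0.00777), a call that ended without KO 2 h replicate 1 (adjusted p = 0.0567) or KO 6 h replicate 2 (adjusted p = 0.0595). The wt call at 2 h ended without wt untreated replicate 2 (adjusted p = 0.143), wt 2 h replicate 1 (adjusted p = 0.0866) or wt 2 h replicate 2 (adjusted p = 0.0987).

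Eif4ebp1 encodes 4E-BP1, which binds the cap-binding factor eIF4E and blocks translation initiation until mTORC1 phosphorylates it. It measured 9.35 and 9.28 in KO without APAP, 9.55 and 9.71 in KO after 2 h and 10.61 and 10.34 in KO after 6 h. Its wt values were 9.45 and 9.42 without APAP, 9.43 and 9.56 after 2 h and 10.66 and 10.56 after 6 h. The 4 arrays at 6 h stood above the other 8. At 2 h the differences of 0.32 ± 0.12 in KO (adjusted p = 0.0608) and 0.06 ± 0.12 in wt (adjusted p = 0.783) were not called. At 6 h Eif4ebp1 was 2.24-fold higher in KO (1.16 ± 0.12, adjusted p = 7.06e-05) and 2.26-fold higher in wt (1.18 ± 0.12, adjusted p = 5.52e-05). The steps between 2 h and 6 h were called in KO (0.84 ± 0.12, adjusted p = 0.000634) and in wt (1.11 ± 0.12, adjusted p = 0.000266). These 4 calls held without any 1 array.

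Chac1 encodes a gamma-glutamylcyclotransferase that degrades glutathione inside the cell. It measured 6.40 and 7.24 in KO without APAP, 9.0 and 8.03 in KO after 2 h and 10.20 and 7.58 in KO after 6 h. The wt livers had 5.66 and 6.35 without APAP, 6.26 and 7.78 after 2 h and 9.81 and 10.15 after 6 h. The arrays of 1 group differed by up to 2.62, the widest gap among the 10 genes, and KO 6 h replicate 1 held the highest value of all 12. Chac1 rose 15.7-fold in wt at 6 h (3.98 ± 0.75, adjusted p = 0.00206), which held without any 1 array. The KO difference at 6 h was 2.07 ± 0.75 and was not called (adjusted p = 0.0539). Leaving out KO 6 h replicate 2 gave 3.38 ± 0.61, which was called (adjusted p = 0.00312), and leaving out replicate 1 gave 0.76 ± 0.61 (adjusted p = 0.418). At 2 h the differences of 1.70 ± 0.75 in KO (adjusted p = 0.108) and 1.01 ± 0.75 in wt (adjusted p = 0.424) were not called. The wt step between 2 h and 6 h was 2.96 ± 0.75 (adjusted p = 0.0153), and it lost its call without wt 2 h replicate 1 (adjusted p = 0.124) or wt 6 h replicate 2 (adjusted p = 0.0761).

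Fgf21 encodes a hormone secreted by the liver, which signals through FGF receptors paired with beta-klotho. It measured 4.96 and 4.05 in KO without APAP, 8.63 and 9.49 in KO after 2 h and 7.55 and 5.83 in KO after 6 h. Its wt values were 6.32 and 5.62 without APAP, 8.96 and 10.02 after 2 h and 8.41 and 8.09 after 6 h. The 4 arrays at 2 h were the highest of the 12, and the KO arrays untreated were the lowest. The untreated KO mean of 4.50 lay under the minimum mean of 5 used to admit a gene, which Fgf21 passed over all 12 arrays, so fitted differences from untreated KO livers rest on a dim signal and are approximate. Fgf21 rose 23.6-fold in KO at 2 h (4.56 ± 0.56, adjusted p = 0.000524) and 11.5-fold in wt at 2 h (3.52 ± 0.56, adjusted p = 0.00288), and both calls held without any 1 array. At 6 h it was 4.55-fold higher in KO (2.19 ± 0.56, adjusted p = 0.0120) and 4.85-fold higher in wt (2.28 ± 0.56, adjusted p = 0.00861). The KO call at 6 h ended without KO untreated replicate 2 (adjusted p = 0.0942) or KO 6 h replicate 1 (1.33, adjusted p = 0.101), and the wt call ended without wt untreated replicate 2 (adjusted p = 0.0697) or wt 6 h replicate 1 (adjusted p = 0.0521). Between 2 h and 6 h Fgf21 fell by 2.37 ± 0.56 in KO (adjusted p = 0.00916), which lost its call without KO 2 h replicate 2 (adjusted p = 0.0679) or KO 6 h replicate 2 (-1.51, adjusted p = 0.0683). The wt step was -1.24 ± 0.56 and was not called (adjusted p = 0.122).

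Vldlr encodes the very low density lipoprotein receptor, which takes up triglyceride-rich particles and whose induction in stressed liver is attributed to ATF4. It measured 8.39 and 7.31 in KO without APAP, 6.28 and 8.06 in KO after 2 h and 7.66 and 7.37 in KO after 6 h. The wt livers had 8.49 and 8.30 without APAP, 8.54 and 7.83 after 2 h and 7.49 and 7.47 after 6 h. With all 12 arrays it was the only one of the 10 genes that was called in no comparison. The KO arrays overlapped across the 3 conditions, and the wt arrays at 6 h lay below the untreated ones without a call (-0.91 ± 0.50, adjusted p = 0.176). The same difference was called lower when KO 2 h replicate 1 or KO 2 h replicate 2 was left out of the shared estimate of spread (adjusted p = 0.0478 in both). The 95% intervals at 6 h were -1.44 to 0.77 in KO and -2.02 to 0.19 in wt.

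**Figure D2:**
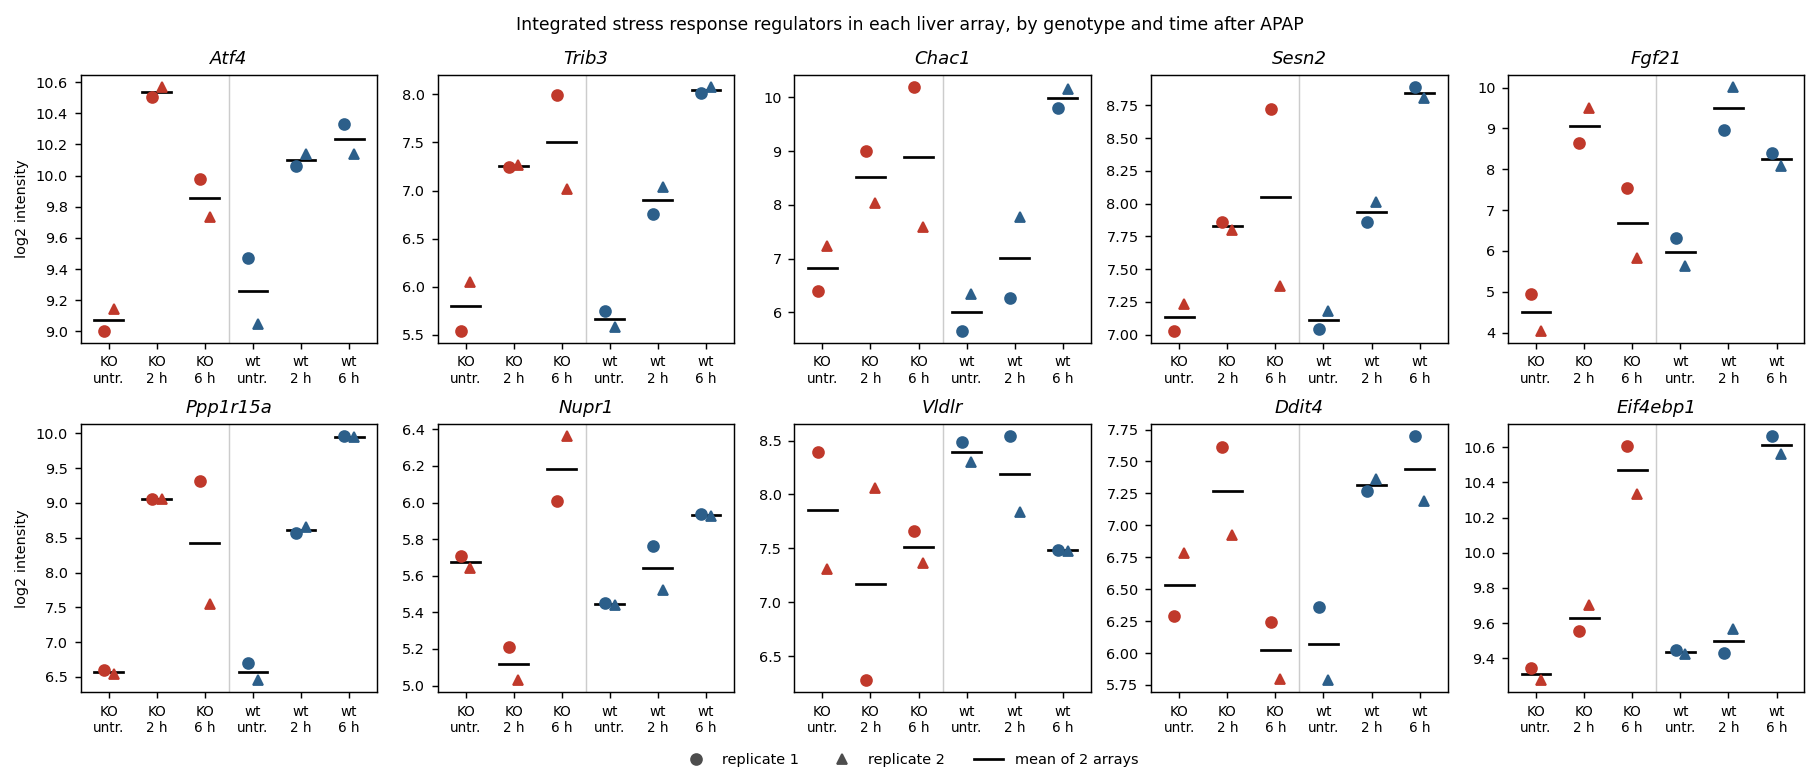
Log2 intensity (y axis) of each of the 10 genes on all 12 arrays, by condition on the x axis (untreated, 2 h and 6 h after APAP), with KO left of wt. Circles are replicate 1, triangles replicate 2 and short lines the mean of the 2 arrays. Fgf21 was highest at 2 h in both genotypes, Eif4ebp1 stood apart only at 6 h, and the KO 6 h arrays of Chac1 lay at 10.20 and 7.58.

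At 2 h, 4 of the 10 genes were called higher and 1 lower in KO livers than in untreated KO livers, where 10.6% of all tested genes were called higher and 20.8% lower. Those higher were Atf4, Trib3, Fgf21 and Ppp1r15a, and Nupr1 was lower. In wt livers at 2 h, 5 were called higher and none lower, where 6.53% of all tested genes were called higher and 6.17% lower. These 5 were Atf4, Trib3, Fgf21, Ppp1r15a and Ddit4. Leaving either KO 6 h array out of the shared estimate of spread also gave calls at 2 h for Sesn2 in KO (adjusted p = 0.00201) and wt (adjusted p = 0.00172), and for Chac1 (adjusted p = 0.0284) and Eif4ebp1 (adjusted p = 0.0415) in KO, all higher. Nupr1 was then called lower in KO than in wt at 2 h (adjusted p = 0.0465). The median log2 difference of the 10 genes was 1.10 in KO and 0.93 in wt, and that of all tested genes was -0.06 in KO and 0.02 in wt.

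At 6 h, 7 of the 10 genes were called higher and none lower in KO, where 15.8% of all tested genes were called higher and 19.1% lower. In wt at 6 h, 9 were called higher and none lower, where 16.5% of all tested genes were called higher and 22.0% lower. Vldlr was the exception in wt, and Vldlr, Chac1 and Ddit4 were not called in KO. The median log2 difference of the 10 genes was 1.04 in KO and 1.55 in wt, against -0.05 in both genotypes for all tested genes. Without KO 6 h replicate 2 the KO median was 1.45 with 7 genes called higher (background 13.6%), and without KO 6 h replicate 1 it was 0.72 with 5 called higher (background 10.7%).

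**Figure D3:**
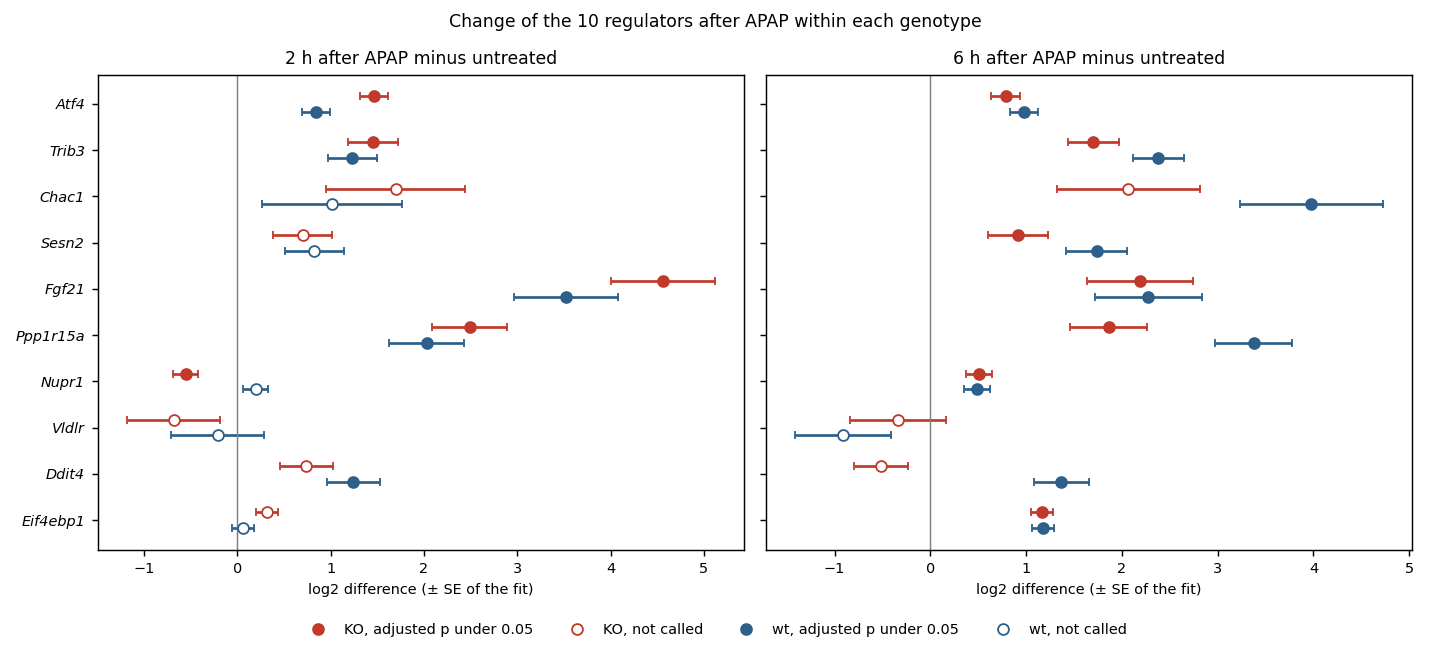
Log2 difference from untreated livers of the same genotype (x axis) for each of the 10 genes (rows) at 2 h and at 6 h, with KO above wt. Points are limma estimates from 2 arrays per group, bars are ± 1 SE, and filled points passed an adjusted p of 0.05. At 6 h 7 KO and 9 wt points are filled, and those of Vldlr are open at both times.

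Between 2 h and 6 h the genes had calls in both directions in KO and only upward calls in wt. The KO and wt steps were not tested against each other, so these calls do not show a difference between genotypes. In wt 2 of the 10 differences were negative without a call. They were those of Fgf21 (-1.24 ± 0.56, limma adjusted p = 0.122) and Vldlr (-0.71 ± 0.50, adjusted p = 0.318). In KO 2 of 10 were called higher at 6 h than at 2 h, Nupr1 and Eif4ebp1, and 3 lower, Atf4, Fgf21 and Ddit4, where 19.1% of all tested genes were called higher and 12.6% lower. In wt 4 were called higher, Trib3, Chac1, Ppp1r15a and Eif4ebp1, and none lower, where 10.9% of all tested genes were called higher and 16.8% lower. The KO counts without KO 6 h replicate 2 were 4 higher and 1 lower (background 13.0% and 8.71%), and without replicate 1 they were 2 higher and 5 lower (background 15.9% and 9.10%). For Sesn2 the arrays gave opposite signs. The step was 0.89 ± 0.14 without replicate 2 and -0.46 ± 0.14 without replicate 1, and it was not called with both arrays (0.22 ± 0.32). Ppp1r15a was called lower without replicate 1 (-1.51 ± 0.13, adjusted p = 0.000222) and was not called with both arrays (-0.63 ± 0.40, adjusted p = 0.260). The wt step of Sesn2, 0.91, was called without either KO 6 h array (adjusted p = 0.000680), against an adjusted p of 0.0552 with all arrays.

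KO was then set against wt in each condition. In untreated livers none of the 10 genes was called, and 0.00586% of all tested genes, 1 gene, were called. At an unadjusted p under 0.05 only Fgf21 differed, lower in KO by 1.47 ± 0.56 (95% interval -2.70 to -0.23), again a fitted value on the dim untreated KO signal. Its KO arrays lay below its wt arrays, as did those of 19.1% of all tested genes. For the other genes the intervals reached from -0.51 to 0.14 for Atf4, from -0.38 to 0.13 for Eif4ebp1 and from -0.84 to 2.47 for Chac1. A several-fold higher level of Chac1 in KO lay within its interval and was not excluded.

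At 2 h none of the 10 was called between KO and wt, where 2.01% of all tested genes were called. At an unadjusted p under 0.05 there were 2. Atf4 was higher in KO by 0.44 ± 0.15 (interval 0.11 to 0.77, adjusted p = 0.120), and Nupr1 was lower in KO by 0.52 ± 0.13 (interval -0.82 to -0.22, adjusted p = 0.0675). For both, the KO arrays did not overlap the wt arrays, as was the case for 55.4% of all tested genes in either direction.

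At 6 h 2 of the 10 genes were called lower in KO than in wt and none higher, where 4.93% of all tested genes were called lower and 4.09% higher. Ddit4 was 2.68-fold lower in KO (-1.42 ± 0.28, adjusted p = 0.0171) and Ppp1r15a 2.87-fold lower (-1.52 ± 0.40, adjusted p = 0.0435). Both KO arrays lay below both wt arrays for 6 of the genes and above for 1, where 27.0% of all tested genes lay below and 29.7% above. The 95% intervals of genes not called were -1.50 to -0.10 for Sesn2, -2.79 to -0.32 for Fgf21, -0.70 to -0.05 for Atf4, -1.14 to 0.04 for Trib3, -2.75 to 0.56 for Chac1, -0.40 to 0.12 for Eif4ebp1, -0.05 to 0.55 for Nupr1 and -1.07 to 1.14 for Vldlr.

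The difference between KO and wt at 6 h turned on the KO arrays. Without KO 6 h replicate 2 none of the 10 genes was called and their median difference was -0.09, where 1.30% of all tested genes were called. Ddit4 was then lower in KO by 1.20 ± 0.34 (adjusted p = 0.118) and Ppp1r15a by 0.64 ± 0.13 (adjusted p = 0.0545), while Chac1 stood at 0.21 ± 0.61 and Trib3 at -0.06. Without KO 6 h replicate 1, 6 genes were called lower and their median was -1.26, where 5.34% of all tested genes were called lower. These were Ppp1r15a (-2.41 ± 0.13, adjusted p = 3.90e-05), Sesn2 (-1.48 ± 0.14, adjusted p = 0.000577), Trib3 (-1.03 ± 0.20, adjusted p = 0.0163), Ddit4 (-1.65 ± 0.34, adjusted p = 0.0201), Fgf21 (-2.42 ± 0.52, adjusted p = 0.0232) and Chac1 (-2.40 ± 0.61, adjusted p = 0.0397). With 1 array left in the group, that array is assumed to vary like the arrays of the other groups. Among all arrays left out, the Ddit4 call also ended without wt 6 h replicate 1 (adjusted p = 0.144), and the Ppp1r15a call ended when any of 11 arrays, all but KO 6 h replicate 1, was left out (adjusted p between 0.0526 and 0.199). Both calls ended in a fit of only the compared groups, with adjusted p = 0.0532 for Ddit4 and 0.171 for Ppp1r15a.

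**Figure D4:**
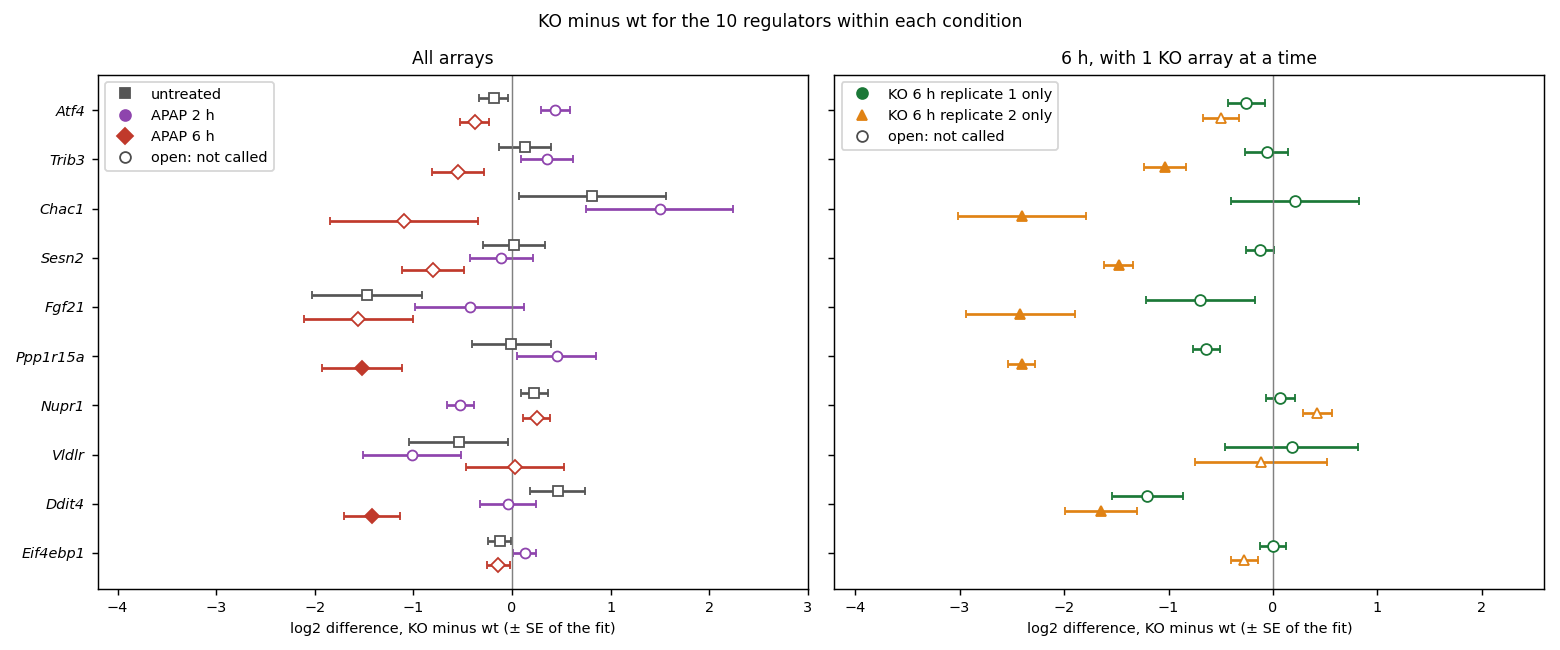
Log2 difference KO minus wt (x axis) for the 10 genes (rows), on the left in untreated livers and at 2 h and 6 h, on the right at 6 h with only KO 6 h replicate 1 or only replicate 2 in the KO group. Points are limma estimates, bars are ± 1 SE, and filled points passed an adjusted p of 0.05. With both arrays 2 genes are filled at 6 h, with only replicate 1 none, and with only replicate 2 there are 6.

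Whether the response to APAP itself differed between genotypes was tested as the KO response minus the wt response. None of the 10 genes was called at 2 h or at 6 h with limma, where 0.0293% of all tested genes were called at 2 h and 0.487% at 6 h. At an unadjusted p under 0.05 there were 2 genes at 2 h and 2 at 6 h. At 2 h these were Atf4 at 0.62 ± 0.21 (interval 0.16 to 1.09, adjusted p = 0.233) and Nupr1 at -0.75 ± 0.19 (interval -1.17 to -0.33, adjusted p = 0.181). At 6 h these were Ddit4 at -1.88 ± 0.40 (interval -2.77 to -1.0, adjusted p = 0.0792) and Ppp1r15a at -1.51 ± 0.57 (interval -2.78 to -0.25, adjusted p = 0.231). Without KO 6 h replicate 1, 2 genes were called at 6 h, Ppp1r15a (-2.40 ± 0.17, adjusted p = 0.000339) and Sesn2 (-1.50 ± 0.18, adjusted p = 0.00400), where 1.28% of all tested genes were called lower. None was called without KO 6 h replicate 2.

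Markers of cell types were also compared between KO and wt. The 6 neutrophil markers summed to linear intensities of 387.4 to 496.6 in KO at 6 h and 1981 to 4213 in wt at 6 h. All 6 neutrophil markers were called lower in KO at 6 h, where 4.93% of all tested genes were called lower and 4.09% higher. In untreated livers the neutrophil sum was 320.9 to 330.6 in KO and 310.3 to 323.9 in wt. At 6 h 1 of 7 Kupffer cell and macrophage markers was called higher in KO. Of 5 sinusoidal endothelium markers 1 was called lower. The 6 hepatocyte markers had no call between KO and wt at 6 h, nor had the stellate cell, lymphocyte, fat and muscle markers. The part of these markers in the values of the 10 genes was not tested.

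The genes closest in profile to each of the 10 were found by the root mean square (rms) difference between their 6 centred group means, on the log2 scale. Closest to Atf4 was Slc25a33 (0.09), to Trib3 Sat1 (0.10), to Sesn2 Slc12a4 (0.10) and to Eif4ebp1 D10Wsu102e (0.06). For Ppp1r15a it was Tsc22d2 (0.21), for Ddit4 Nfkbia (0.17), for Nupr1 Ogg1 (0.05) and for Vldlr Olfr722 (0.14). The closest to Fgf21 was Gadd45b (0.50) and to Chac1 Ppl (0.30), the 2 genes whose own profiles had the widest rms spread, 1.77 for Fgf21 and 1.37 for Chac1. The own spread of the other profiles was 0.34 to 1.25.

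Other genes of the pathway were taken from lists, also chosen with earlier results of these data known. Their counts are descriptive and are to be read against all tested genes. Against untreated livers at 6 h, 15.8% of all tested genes were called higher and 19.1% lower in KO, and 16.5% higher and 22.0% lower in wt. Among 19 tested eIF2 kinases, phosphatases and eIF2B subunits, 6 were called higher and none lower in KO at 6 h, and 6 higher and 2 lower in wt at 6 h. Impact, an inhibitor of GCN2 activation, rose by 2.13 ± 0.16 in KO (adjusted p = 1.54e-05) and by 2.62 ± 0.16 in wt (adjusted p = 5.34e-06). Eif2ak3, which encodes the kinase PERK, rose by 1.88 ± 0.23 in wt at 6 h (adjusted p = 0.000184). In KO at 2 h it rose by 1.49 ± 0.23 (adjusted p = 0.00149). Between KO and wt at 6 h 2 of the 19 were called higher and 1 lower, where 4.09% of all tested genes were called higher and 4.93% lower. Eif2ak2, which encodes the kinase PKR, was higher in KO by 0.79 ± 0.11 (adjusted p = 0.00410), and the eIF2B subunit gene Eif2b4 was higher by 0.56 ± 0.13 (adjusted p = 0.0282). Eif2ak3 was lower in KO by 1.26 ± 0.23 (adjusted p = 0.0136). The Eif2b4 call ended without KO 6 h replicate 2 (adjusted p = 0.154) or wt 6 h replicate 1 (adjusted p = 0.197), and the Eif2ak3 call ended without KO 6 h replicate 2 (adjusted p = 0.0984) or wt 6 h replicate 1 (adjusted p = 0.0837).

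Of 30 tested ATF4 target enzymes, transporters and tRNA synthetases, 5 were called higher and 4 lower in KO at 2 h, and 3 higher and 2 lower in wt at 2 h, where 10.6% of all tested genes were called higher and 20.8% lower in KO, and 6.53% and 6.17% in wt. At 6 h 18 were called higher and 3 lower in KO, and 19 higher and 3 lower in wt, with median differences of 0.75 in KO and 0.80 in wt, against 15.8% higher and 19.1% lower in KO and 16.5% and 22.0% in wt over all tested genes. Psat1, an enzyme of serine synthesis, rose by 5.24 ± 0.22 in KO and by 5.43 ± 0.22 in wt at 6 h (adjusted p = 7.24e-07 in KO and 6.94e-07 in wt). Asns, which makes asparagine, rose by 3.75 ± 0.34 in KO and by 3.97 ± 0.34 in wt (adjusted p = 3.70e-05 in KO and 2.42e-05 in wt). Between KO and wt at 6 h 1 of the 30 was called higher and 2 lower, where 4.09% of all tested genes were called higher and 4.93% lower. The neutral amino acid transporter gene Slc1a4 was higher in KO by 2.19 ± 0.22 (adjusted p = 0.000857), while Slc7a1 and Slc38a2, which also encode amino acid transporters, were lower by 1.33 ± 0.21 (adjusted p = 0.00722) and by 1.11 ± 0.18 (adjusted p = 0.00818). The Slc7a1 call ended without KO 6 h replicate 2 (adjusted p = 0.0599) and the Slc38a2 call without wt 6 h replicate 1 (adjusted p = 0.0741).

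Of 16 tested bZIP partners and Tribbles paralogs, 8 were called higher and 1 lower in KO at 6 h (all tested genes 15.8% and 19.1%), and 12 higher and 1 lower in wt (16.5% and 22.0%). Atf3, a stress-induced repressor of the same family, rose by 6.37 ± 0.39 in KO (adjusted p = 6.09e-06) and by 6.62 ± 0.39 in wt (adjusted p = 4.67e-06). Between KO and wt at 6 h 5 were called lower and none higher (all tested genes 4.93% and 4.09%), among them the AP-1 subunits Fos (-4.26 ± 0.32, adjusted p = 0.000162) and Jun (-2.84 ± 0.38, adjusted p = 0.00410). The median difference of the list was -0.39. It was -0.20 without KO 6 h replicate 2 and -0.65 without replicate 1. The number called changed as well, as it did over all tested genes.

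Of 19 tested genes of the ATF6 and XBP1 branches, 4 were called higher and 5 lower in KO at 6 h. In wt 4 were called higher and 7 lower. Over all tested genes 15.8% were called higher and 19.1% lower in KO, and 16.5% and 22.0% in wt. The KO median difference of the list was 0.28. It was 0.05 without KO 6 h replicate 2 and 0.33 without replicate 1. Edem1, which acts in degradation of misfolded protein, fell by 0.87 ± 0.11 in KO (adjusted p = 0.000190) and by 1.16 ± 0.11 in wt (adjusted p = 3.55e-05). Between KO and wt at 6 h 9 were called higher and 1 lower (all tested genes 4.09% and 4.93%). The median difference of the list was 0.50. It was 0.43 without KO 6 h replicate 2 and 0.66 without replicate 1. The count of 9 did not hold when either KO 6 h array was left out, and it fell most without replicate 2. The number called over all tested genes also changed.

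Around mTORC1, 8 of 25 tested genes were called higher and 9 lower in KO at 6 h, and 5 higher and 6 lower in wt. Over all tested genes 15.8% were called higher and 19.1% lower in KO, and 16.5% and 22.0% in wt. The KO median difference of the list was -0.04. It was 0.09 without KO 6 h replicate 2 and -0.08 without replicate 1. Eif4e, whose product 4E-BP1 binds, rose by 1.39 ± 0.16 in KO (adjusted p = 0.000132) and by 1.63 ± 0.16 in wt (adjusted p = 5.10e-05). Eif4ebp2, the paralog of Eif4ebp1, fell by 0.76 ± 0.10 in KO (adjusted p = 0.000263) and by 0.94 ± 0.10 in wt (adjusted p = 7.14e-05), opposite in sign to Eif4ebp1.

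Around Fgf21, 2 of 12 tested genes of its receptor complex and the PPAR-alpha axis were called higher and 5 lower in KO at 6 h, and 4 higher and 4 lower in wt. For this and the next lists, the shares over all tested genes were 15.8% higher and 19.1% lower in KO and 16.5% and 22.0% in wt. Acot1, an acyl-CoA thioesterase gene and PPAR-alpha target, rose by 2.45 ± 0.21 in KO (adjusted p = 2.75e-05) and by 2.63 ± 0.21 in wt (adjusted p = 1.63e-05). Ehhadh, an enzyme gene of peroxisomal beta-oxidation, rose by 1.07 ± 0.12 in KO (adjusted p = 0.000102) and by 0.96 ± 0.12 in wt (adjusted p = 0.000157). Klb, which encodes beta-klotho, fell by 0.96 ± 0.16 in KO at 6 h (adjusted p = 0.00123), and the receptor gene Fgfr4 fell by 1.07 ± 0.11 in wt at 6 h (adjusted p = 8.01e-05). Around Chac1, 3 of 8 tested glutathione genes were called higher and 1 lower at 6 h in both genotypes. Its paralog Chac2 was the lower one, and fell by 1.49 ± 0.15 in KO (adjusted p = 7.06e-05) and by 1.92 ± 0.15 in wt (adjusted p = 1.59e-05). Around Vldlr, 2 of 7 tested lipoprotein receptors and ligands were called higher and 3 lower in KO at 6 h. In wt none was called higher and 3 lower. No higher call in KO held without KO 6 h replicate 1, and not all held without KO 6 h replicate 2. The KO median difference of the list was -0.04. It was -0.09 without KO 6 h replicate 2 and -0.06 without replicate 1. The receptor gene Lrp1 fell by 0.92 ± 0.13 in KO (adjusted p = 0.000532) and by 0.95 ± 0.13 in wt (adjusted p = 0.000361).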

How the data were processed

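RNA of 12 mouse liver samples was measured on Mouse Gene 1.1 ST arrays (Affymetrix), 1 per sample. Per the submitters' processing notes, the authors used RMA in Affymetrix Expression Console, whose version is not stated. The authors deposited linear-scale normalized intensities. Scan dates and scanner files were not used here, so batches were not examined.

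The log2 of each intensity was taken with no added constant. Probe sets were named from the platform annotation: of 35556, 21218 carried 1 symbol, 1881 several and 12457 none. Only those with 1 symbol were used, a gene with several such probe sets was represented by the one with the highest mean, and genes needed a mean log2 of at least 5. limma 3.58.1 (R 4.3.3) fitted 6 group means with 6 residual and 4.333 prior degrees of freedom, for 11 comparisons, and was tested on simulated data. Intervals cover 95% for a single gene. The number of arrays limits the precision.

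The 10 genes and all lists were chosen with earlier results of these data known. Beside the 10 genes and Pml, list genes were named from the up to 3 with the smallest p, among those called without overlap of arrays, per list and comparison, and the closest profiles by rms difference. Alternatives were no filter, a minimum of 7, quantile normalization, adding 16 before log2, averaged probe sets, a variance trend, the compared groups alone, a replicate block, and each array left out.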

Additional observations from a re-analysis of the deposited data

How the results depend on the processing

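Of the 37 calls of the 10 genes, 36 held with no filter, 24 with a minimum mean log2 of 7 (which leaves 7 of the genes in the test), 37 with quantile normalization, with 16 added, with averaged probe sets and with a variance trend, 34 with only the compared groups, and 36 with the replicate block, which added none and ended that of Sesn2 in KO at 6 h (adjusted p = 0.0527). Same-numbered arrays shared only a number: over 15 pairs of groups their deviations correlated at -0.134 to 0.185, and 4 exceeded 0.1. With the minimum of 7 the number called became 3 for wt at 2 h, 3 for KO at 6 h against 2 h, and 1 for KO against wt at 6 h. With only the compared groups the last became 0. Under quantile normalization 3 uncalled KO against wt differences turned sign: Sesn2 at 2 h to 0.0191, Ppp1r15a untreated to 0.00680 and Ddit4 at 2 h to 0.0901.

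With each array left out, the number called in either direction against untreated ranged from 4 to 8 in KO at 2 h, 2 to 6 in wt at 2 h, 4 to 7 in KO at 6 h and 7 to 10 in wt at 6 h. Between 2 h and 6 h it ranged from 4 to 7 in KO and 1 to 5 in wt. KO against wt gave 0 untreated, 0 to 1 at 2 h and 0 to 6 at 6 h, and the difference in response gave 0 at 2 h and 0 to 2 at 6 h. Over all tested genes the number called also shifted when either KO 6 h array was left out. These ranges are therefore not shown to be particular to the 10 genes. The cause of the shifts was not tested.

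Differences that turned sign in these runs follow, as the lowest and highest log2 value. In KO minus wt in untreated livers, the values were -0.397 to 0.0253 for Atf4, -0.122 to 0.386 for Trib3, -0.0807 to 0.121 for Sesn2, -0.130 to 0.114 for Ppp1r15a and -1.08 to 4.24e-05 for Vldlr. In KO minus wt at 2 h, the values were -0.959 to 0.0995 for Fgf21 and -0.389 to 0.301 for Ddit4. In KO minus wt at 6 h, the values were -2.40 to 0.214 for Chac1 and -0.113 to 0.178 for Vldlr. In KO at 2 h minus untreated, the values were -1.58 to 0.209 for Vldlr. In wt at 2 h minus untreated, the values were -0.561 to 0.143 for Vldlr and -0.00542 to 0.130 for Eif4ebp1. In KO at 6 h minus untreated, the values were -0.882 to 0.203 for Vldlr. In KO at 6 h minus 2 h, the values were -0.240 to 0.733 for Trib3, -0.938 to 1.68 for Chac1, -0.461 to 0.894 for Sesn2, -1.51 to 0.256 for Ppp1r15a and -0.548 to 1.24 for Vldlr. In wt at 6 h minus 2 h, the values were -0.125 to 0.380 for Ddit4. In the KO minus wt response at 2 h, the values were -0.0313 to 0.476 for Trib3, -0.0734 to 1.44 for Chac1 and -1.37 to 0.417 for Vldlr. In the KO minus wt response at 6 h, the values were -0.401 to 0.0210 for Atf4, -0.950 to 0.771 for Fgf21, -0.156 to 0.200 for Nupr1 and -0.149 to 0.123 for Eif4ebp1. Of these 38 sign changes over 26 differences, 1 involved a call, that of Sesn2 between 2 h and 6 h in KO.

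With 2 arrays per group, an uncalled difference is not shown to be absent.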
